A study of Mus musculus with 12 samples.

Results

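The nuclear genes for the oxidative phosphorylation machinery were followed in the separated nuclei and cytoplasms of growing mouse oocytes with and without the RNA helicase MTR4. They were chosen by symbol as the genes named Nduf (series a, b, c, s or v with a number), Sdha to Sdhd, Uqcr, Cox4 to Cox8 and Atp5. This gave 85 of the 23235 genes in the table, with 37 assigned by symbol to complex I, 4 to complex II, 8 to complex III, 19 to complex IV and 17 to complex V. Of these, 3 are caught by their older symbols alone and are not known as subunits: Cox4nb, now named as a member of the ER membrane protein complex, and Atp5s and Atp5sl, now named for distal membrane arm assembly. The symbol also places Ndufa4 in complex I, although its product is now regarded as part of complex IV. The rule leaves out Cyc1 and Ndufab1, and no gene of the mitochondrial genome matched it.

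Total RNA was sequenced from oocytes of mice at day 14, with 10 nuclei or 10 cytoplasms per sample separated by micromanipulation. The groups were Mtr4-null nucleus, WT nucleus, Mtr4-null cytoplasm and WT cytoplasm, with 3 libraries each. The labels name no strain and do not say how or in which cells Mtr4 was deleted. Nothing in them ties the libraries to different animals, so the p-values describe variation among these samples, which may be technical. MTR4 is a helicase that feeds nuclear RNA to the exosome, the complex that degrades it.

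Oxidative phosphorylation takes place in the inner mitochondrial membrane. Complexes I and II pass electrons to ubiquinone, complex III passes them to cytochrome c, complex IV passes them to oxygen, and complex V uses the resulting proton gradient to make ATP. Most of the subunits are encoded in the nucleus, translated in the cytosol and imported. The growing oocyte accumulates many mitochondria and draws its ATP largely from pyruvate oxidized there.

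The authors deposited one FPKM value per gene and library, a level scaled to transcript length and to the mapped fragments of the library, so the number of reads behind a value is unknown. In nuclear libraries 58.0% to 81.7% of all FPKM fell on Scarna2, a small RNA of the Cajal bodies, which had at most 5.13% in cytoplasmic ones. These are shares of the summed FPKM and not of the reads, so the part of a nuclear library taken up by Scarna2 is unknown. FPKM are relative to the mapped fragments of each library. Skiv2l2, which encodes MTR4, had 7.98, 0.182 and 1.12 FPKM in the nuclei labelled Mtr4-null (replicates 1, 2 and 3), against 6.06, 2.45 and 5.37 FPKM in WT nuclei, and 1.04, 0.315 and 0.700 FPKM in Mtr4-null cytoplasms against 21.1, 19.4 and 20.2 FPKM in WT cytoplasms. The library labelled Mtr4-null nucleus replicate 1 thus goes against its label, while the cytoplasms follow theirs. Of the oocyte markers, all 10 were detected, and their summed level was 2946 to 15910 FPKM over the 12 libraries. The 15 granulosa cell markers summed to 20.7 to 27.1 FPKM in Mtr4-null cytoplasms and 34.2 to 41.2 FPKM in WT cytoplasms, and to 8.51 to 29.6 FPKM in Mtr4-null nuclei and 14.9 to 23.8 FPKM in WT nuclei. The 10 theca and stroma markers summed to 1.35 to 4.08 FPKM in Mtr4-null nuclei and 3.96 to 37.1 FPKM in WT nuclei, and to 0.543 to 1.28 FPKM in Mtr4-null cytoplasms and 1.04 to 1.92 FPKM in WT cytoplasms. The only one of them that passed the filter for testing was Star, with a nuclear log2 difference of -1.09, Mtr4-null minus WT. Its groups did not overlap, and 6.7% of all genes tested were lower in this way. The filter (at least 1 FPKM in at least 3 libraries) can be met by the WT nuclei alone. The difference of Star is thus no test of these cells. The 10 blood and endothelium markers summed to 6 to 7.73 FPKM in Mtr4-null nuclei and 3.63 to 7.07 FPKM in WT nuclei, and to 9.48 to 17.0 FPKM in Mtr4-null cytoplasms and 10.2 to 17.4 FPKM in WT cytoplasms. Of that list the 4 globin genes were listed at 0 in all 12 libraries, while Pecam1, the only one tested, was detected in each. The part of these other cells in the results was not tested.

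In WT cytoplasm the members were abundant mRNAs, and their levels spanned a wide range. Their median was 41.9 FPKM, against 9.68 FPKM for the 13157 genes that passed the filter used for testing (at least 1 FPKM in at least 3 libraries). A mean of at least 10 FPKM was reached by 72 of the 85, and at least 100 FPKM by 18. The median per complex followed their numbering, with 32.8 FPKM for complex I, 45.0 for complex II, 58.7 for complex III, 70.6 for complex IV and 81.9 for complex V. Complex IV had the smallest share of members at 10 FPKM or more, 13 of 19, since the symbol rule counts tissue-restricted isoforms of low level. These isoforms lower its median, so its place below complex V depends on counting them. FPKM divides by transcript length, and 58 of the 85 members have a transcript of up to 1000 bases in GENCODE M21. How far that division makes the levels of such short genes comparable was not tested, so the order of genes and complexes is that of the deposited values.

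Complex I, most of whose members are accessory subunits, was led by Ndufb11 and Ndufb4, both accessory subunits of the membrane arm. Ndufb11 averaged 112 ± 3.48 FPKM and Ndufb4 averaged 102 ± 14.8 FPKM in WT cytoplasm (SD, n = 3). In complex II, Sdhd, a membrane anchor, averaged 73.0 ± 5.01 FPKM, Sdhc, the other anchor, 46.8 ± 1.38 FPKM, and Sdha, the flavoprotein with the catalytic site, was lowest at 32.2 ± 1.2 FPKM (SD, n = 3). Complex III spanned a wider range: Uqcrq, known as a ubiquinone-binding protein, averaged 286 ± 9.27 FPKM, Uqcrh, the hinge protein, 127 ± 12.8 FPKM, and Uqcrb 14.5 ± 3.47 FPKM (SD, n = 3). In complex IV, Cox4i1 averaged 207 ± 19.7 FPKM and Cox5a 157 ± 21 FPKM (SD, n = 3), both among the larger subunits encoded in the nucleus. In complex V, Atp5e, the small epsilon subunit of the F1 part, averaged 339 ± 90.1 FPKM and Atp5l, a membrane accessory subunit, 204 ± 24.5 FPKM (SD, n = 3). At the top of the order, Atp5e with 285 to 443 FPKM and Uqcrq with 276 to 292 FPKM overlapped across the 3 WT cytoplasms. Atp5s was the lowest of complex V at 1.35 ± 0.113 FPKM (SD, n = 3).

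**Figure D1:**
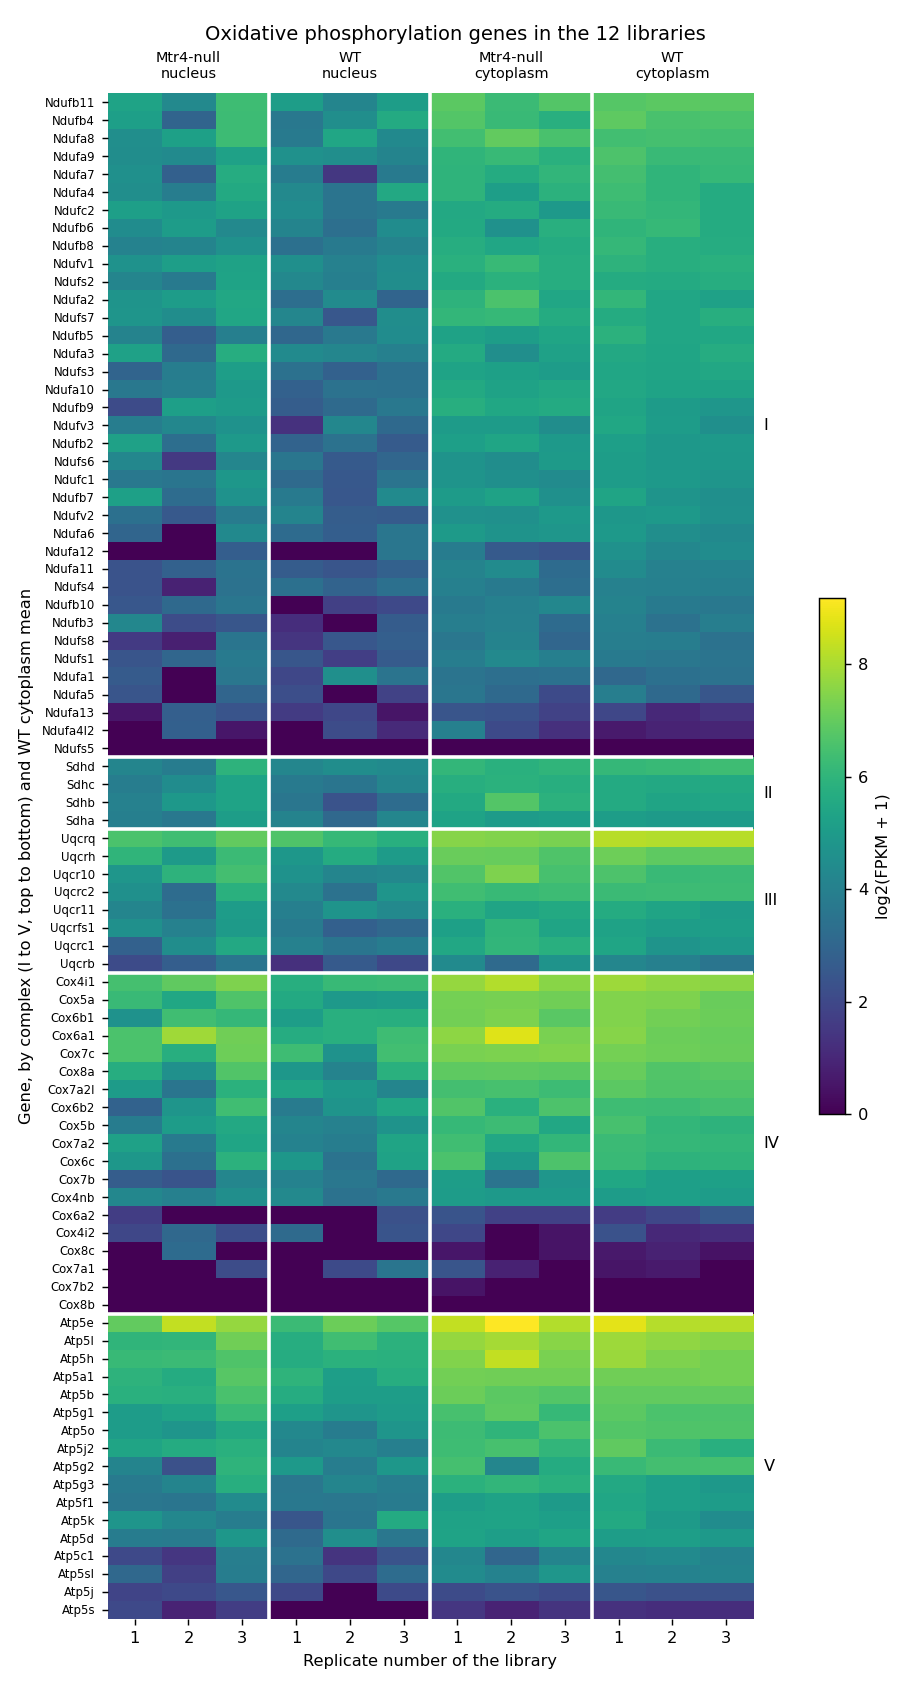
Level of each of the 85 genes in each of the 12 libraries, as log2(FPKM + 1), with genes grouped by complex and ordered by WT cytoplasm mean. The cytoplasms are brighter than the nuclei for most genes, Atp5e and Uqcrq are among the brightest rows, and Ndufs5, Cox7b2 and Cox8b are dark throughout.

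A complex I subunit had no usable value. Ndufs5, an accessory subunit of the enzyme, was listed at 0 to 0.00218 FPKM in all 12 libraries, the lowest mean of complex I in WT cytoplasm. Its coding sequence on chromosome 4 (GRCm38, GENCODE M21) has a near-identical processed pseudogene, BC002163, which matched 99.4% of the bases over 319 of the 321 bases of the coding sequence and was itself listed at 0 in all 12 libraries. The differences are T81C and A105G, with the base of Ndufs5 first, the position counted from the A of the start codon, and the base of BC002163 last. The first 300 bases are shown because they carry so few letters by which a read could be assigned to either gene. Capitals mark both positions.
Ndufs5: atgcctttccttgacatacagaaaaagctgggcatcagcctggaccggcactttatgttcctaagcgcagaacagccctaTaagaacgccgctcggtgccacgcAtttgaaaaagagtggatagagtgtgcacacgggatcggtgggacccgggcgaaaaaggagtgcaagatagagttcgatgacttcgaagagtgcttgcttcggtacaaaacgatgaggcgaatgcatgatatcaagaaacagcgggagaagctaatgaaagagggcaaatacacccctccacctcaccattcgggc
Whether the shared sequence set this value to near 0 was not tested. In all, 19 of the 85 members have at least 1 transcript of another gene in GENCODE M21 that matches at least 95% of the bases over at least 80% of their coding sequence, and Atp5l has 8 such copies. Of the 35 copies, 2 are rows of the table, so levels of these 19 members are uncertain to the extent that reads were shared. The 19 members had a median of 65.4 FPKM in WT cytoplasm and the 66 without a copy 38.6 FPKM.

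In WT cytoplasm the tissue-restricted isoforms were listed at or below 4.98 FPKM in every library except for Cox6b2. Cox6b2 is the testis form of subunit VIb of complex IV, and Cox6b1 its widely expressed partner. Cox6b2 had 102, 56.1 and 97.2 FPKM in Mtr4-null cytoplasms, against 79.5, 78.2 and 84.5 FPKM in WT cytoplasms. Cox6b1 had 149, 165 and 114 FPKM in Mtr4-null cytoplasms, against 173, 147 and 138 FPKM in WT cytoplasms. The groups overlapped for both genes. Cox6b2 made up 37.4 ± 10.7% of the sum of both in Mtr4-null cytoplasm and 34.7 ± 3.24% in WT cytoplasm (SD, n = 3 each). In the nuclei the share was 33.1 ± 18.5% in Mtr4-null and 35.1 ± 8.73% in WT (SD, n = 3 each).

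The other pairs gave low shares in WT cytoplasm. Cox4i2, the lung form, made up 0.974 ± 0.656% of Cox4i1 plus Cox4i2, Cox6a2, the muscle form, 2.27 ± 1.26% of its pair with Cox6a1, and Cox7a1, the heart and muscle form, 0.469 ± 0.424% of its pair with Cox7a2 (SD, n = 3). Cox8b was listed at 0 in every library, Cox7b2 in all but Mtr4-null cytoplasm replicate 1, and Cox8c, a testis form, was listed between 0 and 0.857 FPKM in all but Mtr4-null nucleus replicate 2, where it had 8.29 FPKM. Ndufa4l2, a hypoxia-induced relative of Ndufa4, had 15.1, 3.14 and 1.43 FPKM in Mtr4-null cytoplasms, against 0.575, 0.862 and 0.951 FPKM in WT cytoplasms. The groups did not overlap, 1 library carried most of the difference, and the adjusted p was 0.38.

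The promoters of Cox6b2 and Cox6b1 are printed because the isoforms share a role but not a known expression range. Both are RefSeq windows (GRCm38.p6) from 250 bases before to 50 after the annotated start, on the minus strand, at chr7:4753045-4753344 for Cox6b2 and chr7:30626065-30626364 for Cox6b1. Capitals mark the ETS motif CCGGAAG, here on the opposite strand, which is the core recognized by GABPA, a regulator of many respiratory genes.
Cox6b2: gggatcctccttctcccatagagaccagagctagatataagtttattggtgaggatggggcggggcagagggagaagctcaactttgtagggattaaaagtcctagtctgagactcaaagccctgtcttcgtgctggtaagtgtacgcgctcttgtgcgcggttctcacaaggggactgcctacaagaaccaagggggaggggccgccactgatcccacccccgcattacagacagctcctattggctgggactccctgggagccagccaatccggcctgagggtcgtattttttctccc
Cox6b1: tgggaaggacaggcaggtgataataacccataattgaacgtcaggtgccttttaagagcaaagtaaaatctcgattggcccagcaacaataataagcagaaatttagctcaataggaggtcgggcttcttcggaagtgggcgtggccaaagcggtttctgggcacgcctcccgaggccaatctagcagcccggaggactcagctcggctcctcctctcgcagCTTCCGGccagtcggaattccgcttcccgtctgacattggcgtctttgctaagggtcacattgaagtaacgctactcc
None of the 5 motifs searched was in the Cox6b2 window. Over the 75 windows of 69 member genes used here, CCGGAAG stood on either strand in 21.3%, against 8.86% of the 32851 windows used of all genes. The motif of NRF1, GCGC followed after any 2 bases by GCGC, stood in 25.3% of member windows and 6.23% of all, and the YY1 motif AANATGGC in 25.3% and 6.05%. TCAAGGTCA, the motif of the estrogen-related receptor ESRRA, stood in 2.67% of member windows and 0.423% of all, and TATAAA in 10.7% and 13.6%. These are matches of letters, counted once per window, and no binding was measured.

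In the nucleus, the members' median lay above that of all genes in each of the 3 libraries labelled Mtr4-null. Relative to the WT nuclear mean on the log2(FPKM + 1) scale, the members' median was 0.33, 0.19 and 1.24 in Mtr4-null nuclei 1, 2 and 3, where the median of all genes tested was -0.03, -0.50 and 0.73. The gap between members and all genes was thus 0.36, 0.69 and 0.52 in the Mtr4-null nuclei. Each WT library was set against the mean of the other WT libraries of its compartment. In WT nuclei the gap was -0.16, 0.09 and 0.01. In the cytoplasms it was -0.02, 0.06 and -0.11 in Mtr4-null and 0.19, -0.05 and -0.12 in WT, so the cytoplasms overlapped while the nuclei did not. In pooled samples such as these, a shift in every oocyte and a larger shift in some of them cannot be told apart. FPKM are relative and give no amount of RNA per oocyte.

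**Figure D2:**
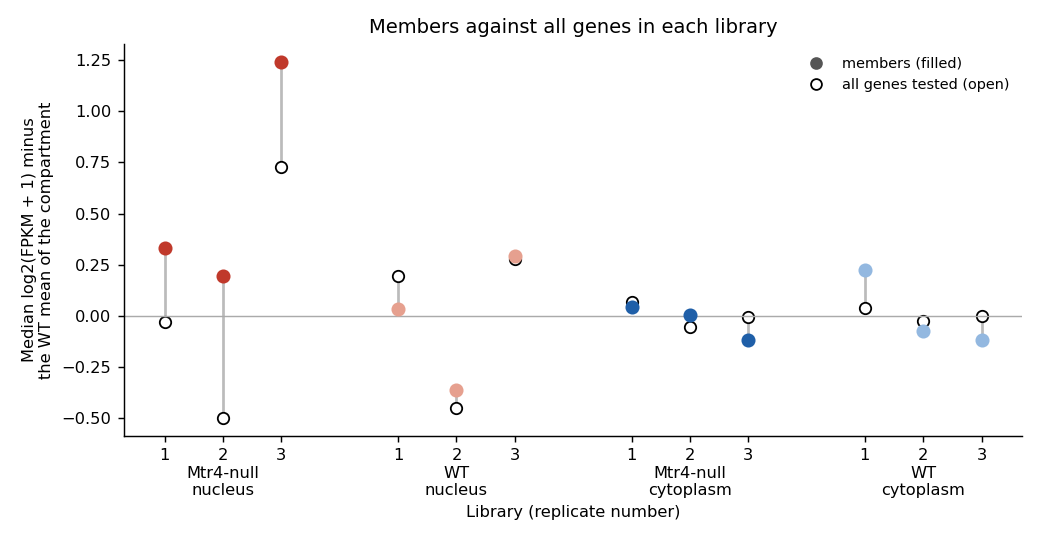
Median log2(FPKM + 1) of the 81 tested members (filled) and of all 13157 genes tested (open) in each library, minus the WT mean of the same compartment. For a WT library that mean leaves out the library itself. The filled points of the 3 Mtr4-null nuclei lie 0.36, 0.69 and 0.52 above their open points, and those of WT nuclei within 0.16.

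The summed FPKM of the 85 members was 2061, 2192 and 3761 in Mtr4-null nuclei, against 1539, 1452 and 1817 in WT nuclei. The groups did not overlap. After the libraries were brought to a common median ratio over 10653 genes, the sums were 3002, 4625 and 3018 in Mtr4-null nuclei, against 2099, 2798 and 2393 in WT nuclei, again without overlap. Which complexes were apart turned on the scale. As deposited, the nuclear sums of complexes III and V did not overlap between the genotypes and those of complexes I, II and IV did, and at the common median ratio I, II and IV did not overlap and III and V did. As deposited, complex V summed to 577, 750 and 1049 FPKM in Mtr4-null nuclei, against 446, 484 and 509 FPKM in WT nuclei, and complex I to 587, 450 and 1022 FPKM in Mtr4-null nuclei, against 374, 360 and 491 FPKM in WT nuclei. At the common median ratio, complex V summed to 841, 1583 and 842 in Mtr4-null nuclei, against 608, 932 and 670 in WT nuclei, and complex I to 855, 950 and 820 in Mtr4-null nuclei, against 509, 694 and 647 in WT nuclei.

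Gene by gene, the median log2 difference of the 81 tested members, Mtr4-null minus WT, was 0.53 in the nucleus, against 0.04 over all genes tested, and 70 of 81 members had a positive difference, against 52.8% of all genes. Without Mtr4-null nucleus replicate 1, the library against its label, the medians were 0.65 for members and 0.09 for all genes, and without replicate 3 they were 0.23 and -0.28. All 5 complexes had like medians: 0.55 for complex I, 0.57 for complex II, 0.53 for complex III, 0.39 for complex IV and 0.55 for complex V. Few members passed the test. By limma with Benjamini-Hochberg adjustment over all genes tested, 3 members rose at an adjusted p below 0.05, where 0.517% of all genes did, and 0 fell, where 1.75% did. At an unadjusted p below 0.05 there were 21 of 81 members, or 25.9%, against 18.3% of all genes. All 3 Mtr4-null values lay above all 3 WT values for 16 members, or 19.8%, against 6.22% of all genes, and below for 0 members, against 6.7%.

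**Figure D3:**
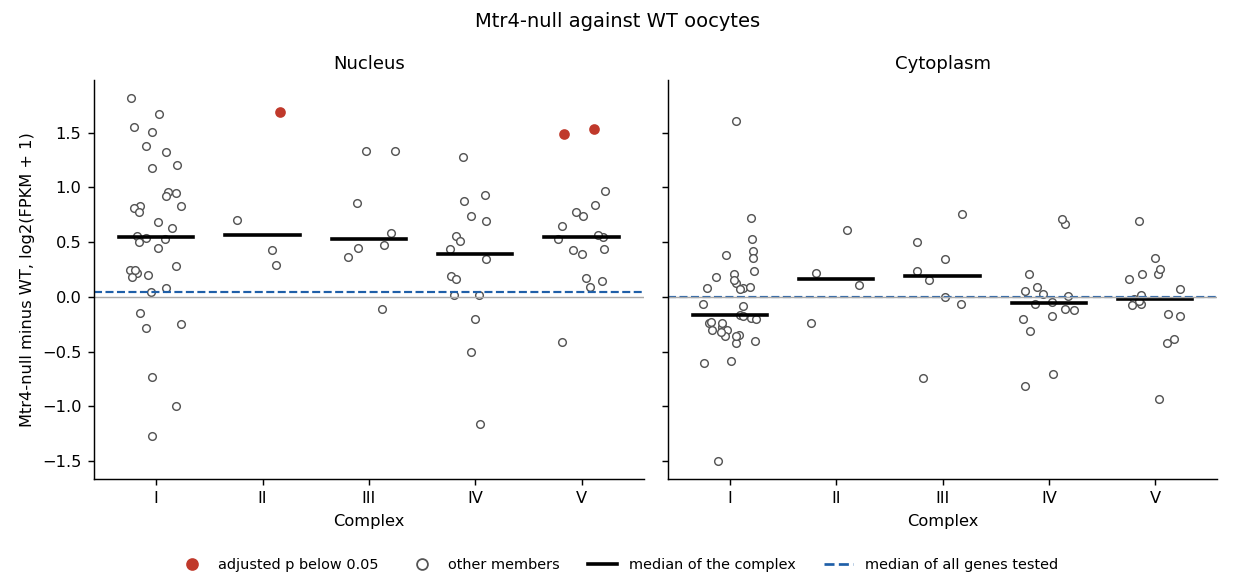
Difference of each tested member between Mtr4-null and WT oocytes, in log2(FPKM + 1), in the nucleus (left) and cytoplasm (right), by complex. In the nucleus the complex medians lie between 0.39 and 0.57 and 3 genes pass the test; in the cytoplasm they lie between -0.17 and 0.19 and 0 pass.

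The 3 genes were Sdhb, Atp5j2 and Atp5s. Sdhb, which encodes the iron-sulfur subunit of complex II, had 15.4, 28.5 and 39.5 FPKM in Mtr4-null nuclei, against 11.1, 4.09 and 8.58 FPKM in WT nuclei. The groups did not overlap, and replicate 1 was the lowest of the Mtr4-null nuclei. It rose by 1.69 ± 0.42 (log2, SE, adjusted p = 0.049 by limma). The other subunits of complex II had smaller positive differences that missed the threshold, with 0.70 for Sdhc, 0.43 for Sdha and 0.29 for Sdhd.

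Atp5j2, which encodes subunit f of the membrane part of ATP synthase, had 39.9, 49.6 and 56.2 FPKM in Mtr4-null nuclei, against 16.8, 18.6 and 14.5 FPKM in WT nuclei. Each group was tight and they lay far apart. The gene rose by 1.48 ± 0.33 (log2, SE, adjusted p = 0.029 by limma). In the cytoplasm the same gene had 79.8, 90.7 and 64.8 FPKM in Mtr4-null oocytes, against 123, 76.0 and 53.9 FPKM in WT oocytes, and these overlapped.

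Atp5s, the coupling factor s that is no subunit of the enzyme, had 3.09, 0.880 and 2.14 FPKM in Mtr4-null nuclei and was listed at 0 in all 3 WT nuclei. It had 1.72, 0.874 and 1.61 FPKM in Mtr4-null cytoplasms, against 1.48, 1.27 and 1.29 FPKM in WT cytoplasms. Its difference in the nucleus was 1.53 ± 0.32 (log2 with 1 FPKM added, SE, adjusted p = 0.023 by limma), a value that the added 1 FPKM sets, since the gene was near that level.

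The promoters of Sdhb and Atp5j2, the subunit genes that passed, are shown as RefSeq windows (GRCm38.p6) at chr4:140961021-140961320 on the plus strand and chr5:145191492-145191791 on the minus strand. Capitals mark CCGGAAG in Sdhb and AANATGGC in Atp5j2, so the windows hold different motifs of the 5 searched.
Sdhb: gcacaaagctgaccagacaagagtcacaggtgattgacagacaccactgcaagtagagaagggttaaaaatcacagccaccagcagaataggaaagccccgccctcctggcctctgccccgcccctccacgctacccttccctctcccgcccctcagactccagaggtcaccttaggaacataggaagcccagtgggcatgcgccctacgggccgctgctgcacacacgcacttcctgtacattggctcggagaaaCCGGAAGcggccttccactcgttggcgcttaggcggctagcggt
Atp5j2: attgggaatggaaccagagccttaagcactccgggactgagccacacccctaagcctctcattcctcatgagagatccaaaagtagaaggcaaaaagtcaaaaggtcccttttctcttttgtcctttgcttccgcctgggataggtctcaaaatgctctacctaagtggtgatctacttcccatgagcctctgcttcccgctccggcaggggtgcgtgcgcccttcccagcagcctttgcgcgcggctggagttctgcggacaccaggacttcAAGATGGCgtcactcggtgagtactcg

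The members next in order of p in the nucleus came from complexes I, III and IV. Ndufb10, an accessory subunit of the membrane arm, had 4.6, 7.85 and 11.0 FPKM in Mtr4-null nuclei, against 0, 2.36 and 3.05 FPKM in WT nuclei, a difference of 1.82 (adjusted p = 0.057 by limma). The groups did not overlap. Uqcrfs1, the Rieske iron-sulfur protein of complex III, had 23.7, 15.3 and 30.8 FPKM in Mtr4-null nuclei, against 12.4, 5.95 and 7.52 FPKM in WT nuclei, a difference of 1.33 (adjusted p = 0.060 by limma). These genes are named after their values were seen, as are the rest of the 16 without overlap: Ndufa2, Ndufa10, Ndufc1, Ndufc2, Ndufv1, Uqcr10, Cox4i1, Cox6a1, Atp5b, Atp5h and Atp5o.

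The fit took 1 spread from all 12 libraries, and the nuclei varied more than the cytoplasms. The median SD of the members between libraries was 0.76 in Mtr4-null nuclei, 0.49 in WT nuclei, 0.28 in Mtr4-null cytoplasms and 0.17 in WT cytoplasms (log2). In a fit of the 6 nuclear libraries alone, 0 members passed, where 0.0152% of all genes were higher and 0.0228% lower, and 11, or 13.6%, had an unadjusted p below 0.05, against 7.79% of all genes. The adjusted p was then 0.46 for Sdhb, 0.46 for Atp5j2 and 0.42 for Atp5s. The calls also moved with single libraries. When Mtr4-null nucleus replicate 1 was left out, 10 members rose and 0 fell, where 4.58% and 5.65% of all genes did, and without Mtr4-null nucleus replicate 2, 7 rose, where 2.04% did. Without WT nucleus replicate 1, 0 members rose, where 0.182% of genes did, and without WT nucleus replicate 3, 1 rose, where 0.479% did. Leaving out replicates 1 and 3 of the Mtr4-null nuclei together leaves 1 Mtr4-null nucleus, which is assumed to vary like the other groups, so its calls describe that library: 10 members rose, where 4.96% of genes did, and 7 fell, where 25.2% did. The cytoplasmic libraries enter through the shared spread. Without Mtr4-null cytoplasm replicate 1, 2 or 3, 1 member rose in each case, where 0.236%, 0.289% and 0.243% of all genes did. Without WT cytoplasm replicate 1 or 3, 2 rose, where 0.228% of genes did both times, and without WT cytoplasm replicate 2, 1 rose, where 0.22% did.

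Transcript length and other short housekeeping mRNAs went along with this shift. The members have short transcripts, with a median of 714 bases in GENCODE M21 against 2677 bases for the tested genes with a length. Among all genes with a transcript of up to 1000 bases the nuclear median difference was 0.22, against 0.16 for 1000 to 2000 bases, 0.08 for 2000 to 4000 bases and -0.02 above that. The 54 tested members of up to 1000 bases had a median of 0.55. The median was 0.41 for the 76 mitochondrial ribosomal protein genes, of which 1 rose (Mrps23), 0.23 for 83 cytosolic ribosomal protein genes, of which 0 passed, and 0.56 for 37 proteasome genes, of which 1 rose (Psmb5, a catalytic subunit). It was 0.35 for 17 genes of the tricarboxylic acid cycle and -0.05 for 10 assembly factors of complex I, with 0 passing in either. The part of transcript length in the members' difference was not tested.

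In the cytoplasm, the members' levels in Mtr4-null and WT oocytes lay close together. Their median difference was -0.03 (log2), and 39 of 81 were positive. In the fit of all groups, 0 members passed, where 1.17% of all genes were higher and 0.714% lower, and 2 had an unadjusted p below 0.05, against 12.6% of all genes. The 85 members summed to 5320, 5864 and 4733 FPKM in Mtr4-null cytoplasms, against 5916, 5027 and 4869 FPKM in WT cytoplasms, and the groups overlapped. Groups did not overlap for 7 members that were higher and 12 that were lower, or 8.64% and 14.8% of the 81, against 23% and 20.9% of all genes.

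The 6 cytoplasmic libraries had the smaller spread, and a fit of these alone called 4 members: 2 rose and 2 fell, where 13.3% of all genes rose and 9.85% fell. Uqcrq, the most abundant complex III gene, had 180, 173 and 160 FPKM in Mtr4-null cytoplasms, against 292, 276 and 291 FPKM in WT cytoplasms. Both groups were tight and did not overlap. It fell by 0.74 ± 0.08 on the log2 scale (SE, adjusted p = 0.0041 by limma on the cytoplasms, 0.30 with all groups), and it passed in each of the 6 fits of the cytoplasms that left out 1 library. In the nuclei Uqcrq had 95.7, 82.2 and 126 FPKM in Mtr4-null oocytes, against 99.2, 70.5 and 55.0 FPKM in WT oocytes, and these overlapped.

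Ndufa12, an accessory subunit of complex I, had 13.4, 5.09 and 4.26 FPKM in Mtr4-null cytoplasms, against 23.8, 18 and 20.9 FPKM in WT cytoplasms, and fell by 1.5 ± 0.39 (adjusted p = 0.042 by limma on the cytoplasms, 0.55 with all groups). Atp5g3, which with Atp5g1 and Atp5g2 encodes the c subunit of the ring in complex V, had 57.1, 64.8 and 55.6 FPKM in Mtr4-null cytoplasms, against 45.6, 35.4 and 29.1 FPKM in WT cytoplasms, and rose by 0.70 ± 0.17 (adjusted p = 0.036 by limma on the cytoplasms, 0.60 with all groups). Uqcrc1, a core protein of complex III, had 44.7, 65.5 and 53.7 FPKM in Mtr4-null cytoplasms, against 40.7, 25.6 and 30.2 FPKM in WT cytoplasms, and rose by 0.75 ± 0.21 (adjusted p = 0.0499 by limma on the cytoplasms, 0.65 with all groups). None of the 3 had overlapping groups. Of the 6 fits that left out 1 cytoplasm, Ndufa12, Atp5g3 and Uqcrc1 each passed in 1, and the number of members called ranged from 1 to 4.

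The c subunit genes showed how these changes lay within a family whose mature proteins are identical. Atp5g3 made up 29.5 ± 4.44% of the summed FPKM of the 3 genes in Mtr4-null cytoplasm and 16.5 ± 2.92% in WT cytoplasm (SD, n = 3 each). The share was 24.3, 32.2 and 31.9% in Mtr4-null cytoplasms, against 19.4, 16.4 and 13.6% in WT cytoplasms, without overlap. Atp5g2 made up 37.4, 8.62 and 28.0% in Mtr4-null cytoplasms, against 31.0, 39.5 and 41.1% in WT cytoplasms, and Atp5g1 38.2, 59.2 and 40.1% against 49.6, 44.1 and 45.3%. The low Atp5g2 share belonged to Mtr4-null replicate 2. No p was computed for the shares. Atp5g2 has 2 near-identical copies of 100% identity and Atp5g1 has 1 of 99.8%, none with FPKM values here, while Atp5g3 has 0. The shares are thus uncertain to the extent that reads were shared with these copies.

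For some members, Mtr4-null replicate 2 stood apart in the same direction in both compartments. Cox6a1, subunit VIa of complex IV, had 421 FPKM in Mtr4-null cytoplasm replicate 2, against 195 and 160 FPKM in the other Mtr4-null cytoplasms, and 235 FPKM in nucleus replicate 2, against 94.9 and 143 FPKM in the other Mtr4-null nuclei. Atp5g2 had 17.4 FPKM in that cytoplasm, against 87.8 and 48.8 FPKM, and 3.82 FPKM in that nucleus, against 16.8 and 62.3 FPKM. Cox6c, another subunit of complex IV, had 30.4 FPKM, against 94.5 and 97.4 FPKM, and 9.43 FPKM, against 28.2 and 58.0 FPKM. These genes are named after their values were seen, and the labels do not say that the libraries with the same number came from the same oocytes. Other members went opposite ways. Replicate 2 minus the other Mtr4-null libraries (log2) was 0.68 in the nucleus and -1.04 in the cytoplasm for Ndufb6, and -1.76 and 0.76 for Ndufs8. Between the compartments these deviations of replicate 2 correlated at 0.28 over the 81 tested members and at 0.30 over all genes tested (Pearson). They were thus not particular to the members. What set replicate 2 apart was not tested.

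**Figure D4:**
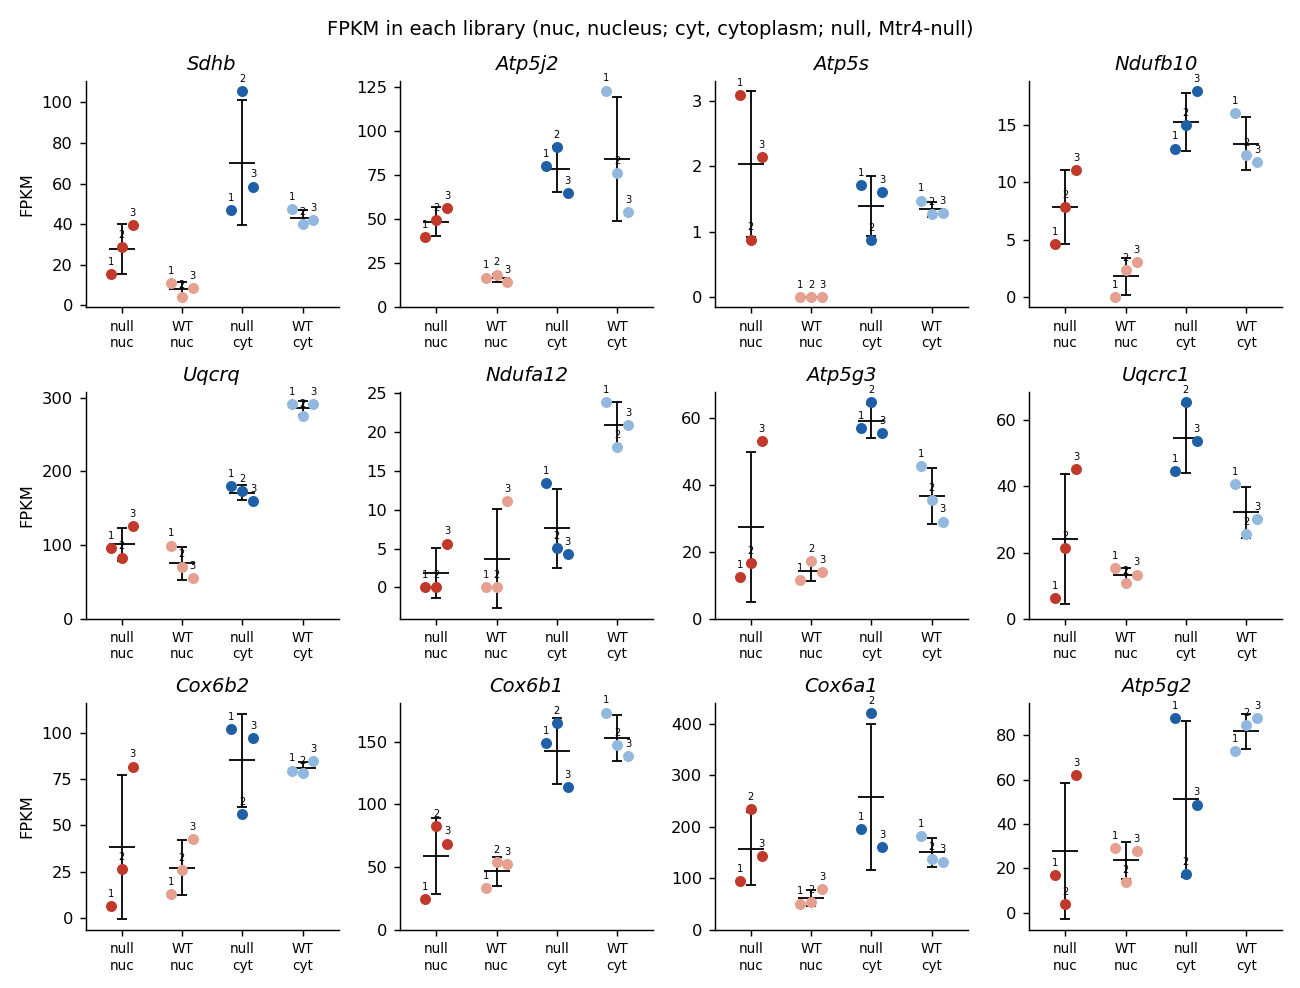
FPKM of 12 members in each library, with the replicate number above each point and the mean and SD of 3 libraries in black. Atp5j2 and Sdhb are higher in all 3 Mtr4-null nuclei than in any WT nucleus, Uqcrq is lower in all 3 Mtr4-null cytoplasms than in any WT cytoplasm, and Cox6a1 and Atp5g2 set replicate 2 apart.

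The difference between the compartments in the response to the deletion was tested as an interaction. Over the 81 members its median was 0.61, nucleus minus cytoplasm, against 0.06 over all genes tested, and 68, or 84.0%, were positive, against 53.4% of all genes. By limma with Benjamini-Hochberg adjustment, 0 members passed in either direction, where 0.122% of all genes did in either direction, and 9 had an unadjusted p below 0.05, against 10% of all genes. Atp5s (1.52, adjusted p = 0.21), Atp5j2 (1.52, adjusted p = 0.22) and Uqcrq (1.19, adjusted p = 0.33) had the values given above in each compartment. The nuclear and cytoplasmic effects of the members are thus not shown to differ gene by gene.

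Between the compartments, the members were lower in the nucleus in both genotypes, as shares of the library. In WT oocytes 71 of 81 members were lower in the nucleus and 0 higher, where 45% and 12% of all genes were. Their median was -1.72 (log2), against -0.90 for all genes tested. In Mtr4-null oocytes 37 members were lower and 0 higher, where 28.1% and 4.08% of all genes were, with a median of -1.19 against -0.82. All genes together were thus also lower in the nucleus on this scale. The gap was smaller among genes with a transcript of up to 1000 bases. In WT the median of all such genes was -1.30, against -1.77 for the 54 tested members of that length. In Mtr4-null oocytes these medians were -0.98 and -1.15. The part of transcript length in the compartment difference was not tested. With the libraries brought to a common median ratio, the medians were -0.65 for members against 0.00 for all genes in WT and -0.30 against -0.05 in Mtr4-null, and 20 members were lower in WT nuclei, where 9.84% of all genes were, and 0 in Mtr4-null nuclei, where 0.266% were.

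**Figure D5:**
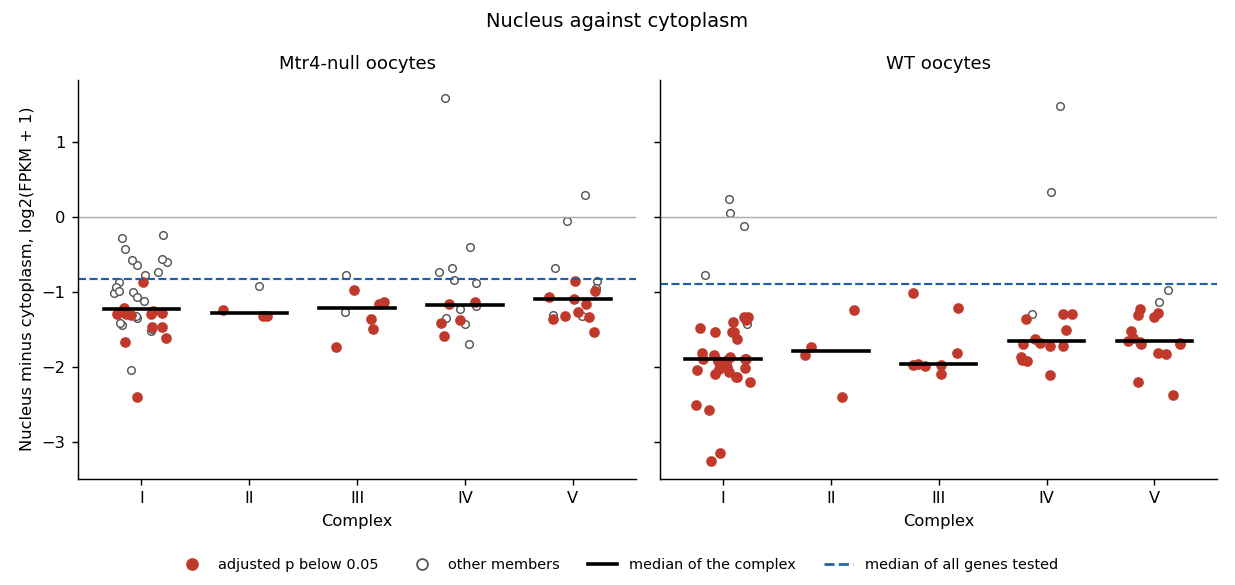
Difference of each tested member between nucleus and cytoplasm, in log2(FPKM + 1), in Mtr4-null (left) and WT oocytes (right), by complex. All complex medians lie below the median of all genes tested, which is -0.82 in Mtr4-null and -0.90 in WT.

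In WT oocytes all 4 genes of complex II, all 8 of complex III, 31 of 36 of complex I, 13 of 16 of complex IV and 15 of 17 of complex V were lower in the nucleus. Of all genes tested, 45% were lower. Atp5o, the stalk subunit that confers sensitivity to oligomycin, had 18.4, 13.4 and 26.3 FPKM in WT nuclei, against 105, 99.9 and 99.3 FPKM in WT cytoplasms, and was lower by a log2 difference of -2.38 ± 0.32 (SE, adjusted p = 0.00014 by limma). Sdhb was lower by -2.39 ± 0.42 and Atp5j2 by -2.20 ± 0.33. Ndufa7, an accessory subunit of complex I, had 13.5, 1.83 and 12.6 FPKM in WT nuclei, against 84.7, 63.3 and 70.4 FPKM in WT cytoplasms (-3.15 ± 0.65, adjusted p = 0.0017 by limma), and Ndufa12 was listed at 0 in WT nuclei 1 and 2 and had 11.1 FPKM in WT nucleus 3, against 18 to 23.8 FPKM in WT cytoplasms. In complex IV, Cox5a had 47.1, 29.1 and 32.4 FPKM in WT nuclei, against 171, 167 and 133 FPKM in WT cytoplasms (-2.11 ± 0.34, adjusted p = 0.00046 by limma). Of the other named genes, Ndufb10, Sdhc, Sdhd, Uqcrb, Uqcrc2, Uqcr10, Cox7a2l, Cox8a and Atp5c1 lay between -2.58 and -1.73.

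The members that did not pass in WT were Ndufa1, Ndufa6, Ndufa13, Ndufa4l2, Ndufs4, Cox4i2, Cox6a2, Cox7a1, Atp5j and Atp5k. Ndufa1, a small membrane arm subunit, had 2.89, 22.8 and 10.6 FPKM in WT nuclei, against 7.54, 9.36 and 9.98 FPKM in WT cytoplasms. Cox7a1 had 0, 3.12 and 10.8 FPKM in WT nuclei, against 0.447, 0.574 and 0 FPKM in WT cytoplasms. Its nuclei overlapped the cytoplasms, and the adjusted p was 0.12.

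In Mtr4-null oocytes the same direction held with more spread. Sdhb had 15.4, 28.5 and 39.5 FPKM in Mtr4-null nuclei, against 47.0, 105 and 58.5 FPKM in Mtr4-null cytoplasms, and was lower by -1.32 ± 0.42 (adjusted p = 0.039 by limma). Atp5h, a peripheral stalk subunit of complex V, had 71.0, 76.2 and 99.7 FPKM in Mtr4-null nuclei, against 172, 322 and 161 FPKM in Mtr4-null cytoplasms (-1.34 ± 0.33, adjusted p = 0.030 by limma). Ndufa6, an accessory subunit of complex I, had 6.96, 0 and 19.5 FPKM in Mtr4-null nuclei, against 31.1, 25.1 and 27.5 FPKM in Mtr4-null cytoplasms (-2.40 ± 0.74, adjusted p = 0.038 by limma). The other named genes, Ndufb5, Ndufs8, Sdhc, Sdhd, Uqcrc1, Uqcrc2, Uqcr11, Cox6b1, Cox7a2l, Cox7b, Atp5g3 and Atp5sl, lay between -1.73 and -1.25. These calls rested on the shared spread and on single libraries. In a fit of the 6 Mtr4-null libraries alone 0 members passed, where 0.0912% of all genes were lower. Without Mtr4-null nucleus replicate 1, 1 member was lower, where 0.593% of genes were, and without replicate 2, 5 were, where 1.66% were. Without replicate 3, the nucleus in which the median of all genes was 0.73 above WT, 62 were, where 59.8% were. Without any 1 of the 6 cytoplasms there were 0 or 1. The share of all genes in those fits is not given here, so this count does not set the members apart.

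Genes that assemble or serve the complexes did not all share the pattern. In WT oocytes 16 of 17 genes of the tricarboxylic acid cycle and 9 of 11 carriers were lower in the nucleus, as were 5 of 10 assembly factors of complex I and 7 of 11 of complex IV. Of all genes tested, 45% were lower and 12% higher, so the 5 of 10 lies near the share of all genes. Acad9, an acyl-CoA dehydrogenase family member that helps to assemble complex I, was higher in the nucleus, with 55.8, 27.0 and 59.0 FPKM in WT nuclei, against 5.94, 5.57 and 6.41 FPKM in WT cytoplasms (2.71 ± 0.43, adjusted p = 0.00041 by limma). Lyrm7, a chaperone of the Rieske protein, and Cyct, the testis cytochrome c, were also higher in WT nuclei, by 1.75 and 1.82 on the log2 scale (adjusted p = 0.0064 and 0.011 by limma). Of the 81 members themselves, 0 were higher in either genotype.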

How the data were processed

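Total RNA was rRNA-depleted and sequenced in 12 libraries. Per the submitters' processing notes, TopHat2 2.1.1, Cufflinks 2.2.1 and mm9 were used. The authors deposited FPKM per gene and library, with no counts, so depth is unknown and no counting interval is given. A gene entered the test when 3 or more of the 12 libraries had 1 FPKM or more (13157 of 23235 genes and 81 of 85 members). Tests were run on log2(FPKM + 1) with limma 3.58.1 in R 4.3.3: means of the 4 groups, 1 shared spread, an intensity trend, two-sided moderated tests, and Benjamini-Hochberg adjustment over all genes tested. The code was checked on simulated data, where the rule for passing concerned the bias of the estimates and not the number of false calls. Folds on this scale understate changes of low genes. The members and lists were chosen with earlier results of these data known. Genes named were those called in a genotype comparison or in the fit of its 6 libraries alone, up to 3 of the largest differences per complex between compartments, the 2 highest and the lowest per complex, and tissue-restricted isoforms with their partners. Others are marked in the text. Transcript lengths and coding sequences came from GENCODE M21, copies from blastn 2.17.0, and promoters from RefSeq (GRCm38.p6), without windows on chromosome 18, which were not used here. Replicate numbers are shared between groups, and their pairing was checked. No coordinates of the authors' build were used.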

Additional observations from a re-analysis of the deposited data

How the results depend on the processing

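The counts that follow are of members alone and do not set them apart from other genes, since calls over all genes moved too. With median-of-ratios scaling the share of all genes lower in the nucleus went from 45% to 9.84% in WT. In Mtr4-null oocytes it went from 28.1% to 0.266%. The nuclear median of the members stayed above that of all genes under every alternative, with 0.19 to 0.73 for members and -0.50 to 0.34 for all genes, but the number of members called in the nucleus did not keep. It was 3 (all higher), and became 10 with median-of-ratios scaling (9 higher, 1 lower), 8 with quantile normalization, 17 without Mtr4-null nuclei 1 and 3 together (10 higher, 7 lower), which leaves 1 Mtr4-null nucleus assumed to vary like the other groups, 0 with the 6 nuclei alone, and 0 to 10 with 1 library left out (2 higher and 1 lower without Mtr4-null nucleus 3). Atp5j2 passed in 12 of 26 alternatives, Atp5s in 17 and Sdhb in 4, with adjusted p of 0.014 to 1, 0.0063 to 1 and 0.0096 to 1 by limma. In the cytoplasm the count of 0 became 10 with library weights (6 higher, 4 lower), 1 without Mtr4-null nuclei 1 and 3, and 4 with the 6 cytoplasms alone, and was 0 with 1 library left out of all 12 and 1 to 4 with 1 left out of the cytoplasms, a choice made after seeing the data. Uqcrq was negative in all 26 alternatives and passed in 9 (adjusted p 0.00018 to 0.70), Ndufa12, Atp5g3 and Uqcrc1 in 3 each. Between compartments in WT, the count of 71 became 20 and 15 with the scalings and 56 to 73 with 1 library left out. In Mtr4-null oocytes the count of 37 became 0 with either scaling and with the 6 libraries alone, 10 with no filter, 60 with library weights, 63 without nuclei 1 and 3, and 0 to 62 with 1 library left out. The interaction count of 0 became 3 with library weights and 4 without nuclei 1 and 3 (1 higher, 3 lower), and was 0 with any 1 library left out. Signs were followed only for genes named because they were called in a comparison. None of these changed sign in that comparison under the alternatives run, and the signs of the other genes in the text were not followed. The nuclear sums of each of the 5 complexes changed between overlap and no overlap of the genotypes with median-of-ratios scaling. A pseudocount of 0.1 FPKM gave 2, 0, 64, 26 and 0 calls in the order above.

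With median-of-ratios scaling the members' summed levels averaged 3548 in Mtr4-null nuclei, 2430 in WT nuclei, 3764 in Mtr4-null cytoplasms and 3651 in WT cytoplasms, so the compartments drew together. By complex, in Mtr4-null and WT nuclei and then Mtr4-null and WT cytoplasms, they averaged 875, 617, 943 and 996 for I, 128, 82.3, 158 and 135 for II, 414, 299, 466 and 481 for III, 1043, 695, 1058 and 968 for IV, and 1089, 737, 1139 and 1070 for V.

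Whether replicate numbers pair the libraries was not settled. Correlations of the deviations of same-numbered libraries from their group means were 0.12, 0.06 and -0.01 between Mtr4-null and WT nuclei. There 4 of 6 libraries were nearest to their own number. Between Mtr4-null and WT cytoplasms they were -0.15, -0.12 and 0.07 (1 of 6), and between WT nuclei and cytoplasms -0.13, -0.01 and -0.04 (0 of 6). Between Mtr4-null nuclei and cytoplasms they were 0.06, 0.30 and 0.12 (3 of 6). Mtr4-null nucleus replicate 2 had -0.20 and -0.18 with Mtr4-null cytoplasms 1 and 3. With a replicate block the counts were 3 (Ndufb10 in place of Sdhb), 0, 71, 49 (48 lower, and Cox4i2 higher) and 0. The number of reads behind each FPKM value is not known, so what depth limits could not be measured.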
